A study of Mus musculus with 18 samples.

Results

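Acute phase proteins, complement components and the NF-κB, chemokine and cytokine genes that go with them were measured in AML12 cells, an established hepatocyte line from a mouse transgenic for the growth factor TGFα, after exposure to pemafibrate or to its solvent. The group holds 44 genes of 35551 gene IDs in each table, chosen by name as inflammatory genes of the kind that the nuclear receptor PPARα is known to repress. The choice was made with earlier results of these data known. They comprise 15 acute phase genes, 7 complement genes, 7 NF-κB genes, 7 chemokine and cytokine genes, 5 genes of IL-6 and IL-1 signalling, and 3 further genes, the adhesion molecules Vcam1 and Icam1 and the MHC class I activator Nlrc5. All 44 were found.

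The study exposed clock-synchronized AML12 cells to pemafibrate, a selective PPARα modulator, or to DMSO, and sequenced poly(A) RNA. The exposure ran from T0 to T24 (24 h), from T14 to T20 (6 h in a phase meant to resemble day) or from T24 to T30 (6 h in a phase meant to resemble night). Each of the 6 groups of window and treatment has 3 libraries, numbered 1 to 3, which gives 18 libraries. All groups share the cell line and the synchronization, no untreated or inflamed group is among them, and the dose is not given in the sources used here. No label says that libraries of 1 group came from separate cultures, so the p-values below reflect the variation among these 18 libraries alone, and it could be technical. The titles do give numbers, and libraries of the same number within a window were treated as pairs.

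The acute phase response is the change in liver secretion that follows infection or injury. IL-6 acts on hepatocytes through its receptor and the transcription factor STAT3, IL-1 and TNF act through NF-κB, and C/EBP factors take part in both arms. Hepatocytes are also the main source of circulating complement. Activated PPARα is known to restrain this programme in liver by interfering with NF-κB, STAT3 and C/EBP activity, which is background and not a result of these data.

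Promoters were looked up for 32 of the 44 members in a RefSeq table (build GRCm38.p6) that holds 250 bases before and 50 bases after each start, and motifs were searched on both strands. The NF-κB consensus was found in 9 of the 32 members and in 9.55% of the 27025 genes of that table. It was found in 5 of 5 chemokine and cytokine genes with an entry (Ccl20, Cxcl1, Cxcl2, Cxcl10 and Il6), in 3 of 5 NF-κB genes (Nfkb2, Nfkbia and Tnfaip3) and in Il1r1. The C/EBP motif TTGCNNAA was found in 14 of 32 members, among them 9 of 13 acute phase genes and 3 of 3 complement genes, and in 12.2% of all genes. The STAT motif TTCNNNGAA was found in 7 of 32 members, including Socs3, Fga, Fgb and Icam1, and in 9.55% of all genes. A match describes the letters of this window and is not a measured site.

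The 170 bases before the start are printed for 7 members on whose values the results below turn, with motif matches in capitals. Ccl20 (chr1:83116596-83116765, plus strand), Cxcl1 (chr5:90891075-90891244, plus strand), Cxcl2 (chr5:90903729-90903898, plus strand) and Cxcl10 (chr5:92348890-92349059, minus strand) are chemokines, and their capitals mark the NF-κB consensus. In Cxcl1 and Cxcl2 there are 2 overlapping matches, 1 on each strand, and the capitals spell the same run in both genes. Cxcl10 has 3 matches, 2 of which overlap. Saa3 (chr7:46715677-46715846, minus strand) and C3 (chr17:57228137-57228306, minus strand) carry a C/EBP match, and Icam1 (chr9:21015770-21015939, plus strand) a STAT match.
Ccl20: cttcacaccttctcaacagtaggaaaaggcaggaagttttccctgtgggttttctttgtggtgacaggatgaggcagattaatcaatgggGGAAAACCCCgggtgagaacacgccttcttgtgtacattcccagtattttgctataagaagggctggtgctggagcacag
Cxcl1: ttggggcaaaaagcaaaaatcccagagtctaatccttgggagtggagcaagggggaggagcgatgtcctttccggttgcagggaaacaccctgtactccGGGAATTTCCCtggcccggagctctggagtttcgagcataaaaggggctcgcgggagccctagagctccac
Cxcl2: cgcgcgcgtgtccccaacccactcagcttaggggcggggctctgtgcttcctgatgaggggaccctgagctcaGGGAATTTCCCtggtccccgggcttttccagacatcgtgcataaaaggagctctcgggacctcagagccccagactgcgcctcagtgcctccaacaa
Cxcl10: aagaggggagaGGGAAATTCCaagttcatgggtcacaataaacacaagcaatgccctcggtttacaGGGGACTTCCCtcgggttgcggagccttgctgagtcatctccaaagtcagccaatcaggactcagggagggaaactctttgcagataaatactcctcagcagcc
Saa3: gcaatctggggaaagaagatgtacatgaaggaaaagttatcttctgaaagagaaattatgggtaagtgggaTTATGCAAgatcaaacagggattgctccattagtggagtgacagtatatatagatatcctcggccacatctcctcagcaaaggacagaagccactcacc
C3: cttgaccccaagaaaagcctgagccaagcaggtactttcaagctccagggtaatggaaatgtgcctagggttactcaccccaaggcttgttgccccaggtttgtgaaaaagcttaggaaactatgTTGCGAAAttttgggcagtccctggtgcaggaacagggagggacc
Icam1: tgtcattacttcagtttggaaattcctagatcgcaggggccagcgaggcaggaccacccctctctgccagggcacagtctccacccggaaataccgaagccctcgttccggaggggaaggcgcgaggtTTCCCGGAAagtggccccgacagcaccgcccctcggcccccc

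The values are normalized signal per gene, on which 1 unit is worth about 1 read, and library totals ran from 31461977 to 33884634. Of 12 hepatocyte markers 9 had a mean of 10 or more, with Alb, Ttr, Trf, Apob and Hnf4a among them, while Apoa1, Apoa2 and Cps1 did not. The bile duct markers Krt7, Krt19, Sox9 and Spp1 also had a mean of 10 or more, and Epcam did not. Of 9 macrophage markers 3 had a mean of 10 or more (Csf1r, Ptprc and Cd68), while Adgre1 and Clec4f were listed at 0 in every library. As a check of the treatment, all 6 PPARα target genes examined (Pdk4, Angptl4, Plin2, Cpt1a, Acot1 and Acot2) rose with pemafibrate over the 3 windows (limma with Benjamini-Hochberg adjustment, paired). Their log2 fold changes ran from 0.31 ± 0.02 (SE, 9 pairs) for Cpt1a to 1.17 ± 0.11 for Pdk4. In single windows all 6 estimates were positive. At an adjusted p under 0.05 (limma) 5 of 6 passed in T0 to T24, and 2 of 6 in each 6 h window. In bulk RNA of this kind, fewer cells of a type and less RNA per cell cannot be told apart.

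Of the 44 members, 37 had a mean of 10 or more in the 18 libraries and could be tested over all libraries. Among the acute phase genes 9 of 15 passed: the iron-binding lipocalin Lcn2, the serum amyloid Saa3, the orosomucoid Orm1, haptoglobin (Hp), hemopexin (Hpx), the fibrinogen chains Fga and Fgb, Crp and ceruloplasmin (Cp). The other 6 were near the detection floor. Saa1 lay between 3.10 and 13.7 units, Saa2 between 2.07 and 14.1, Orm2 between 0 and 23.2, Itih3 between 0.409 and 20.9 and Itih4 between 1.48 and 13.5. Fgg, the third fibrinogen chain, was listed at 0 in 12 of 18 libraries and never exceeded 1.98 units. All 7 complement genes and all 7 NF-κB genes passed, as did all 5 genes of IL-6 and IL-1 signalling and all 3 of Vcam1, Icam1 and Nlrc5. Of the 7 chemokine and cytokine genes 6 passed. Il6 itself was listed at 0 in 14 of 18 libraries with a maximum of 3.04. Saa1 and Saa2, and Orm1 and Orm2, are near-identical copies, so the division of reads between them is uncertain.

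None of the tested members passed the threshold between pemafibrate and DMSO in any window. In the 24 h exposure 0 of 38 members passed (limma on log2(value + 1), paired by number, Benjamini-Hochberg adjusted p under 0.05), against 0.0525% of the 13325 genes tested. From T14 to T20 the count was 0 of 38 against 0.0379% of genes, and from T24 to T30 it was 0 of 37 against 0.0378%. The same tests called only 2 of the 6 PPARα target genes in each 6 h window. A count of 0 there does not exclude a change. A fit of 1 effect common to the 9 pairs called 0 of 37 members and 0.189% of genes. At an unadjusted p under 0.05 there were 6 members in the 24 h exposure (15.8% of members, against 5.17% of all genes) and 8 over all windows (21.6% against 6.45%). There were 4 from T14 to T20 (10.5% against 8.14%) and 3 from T24 to T30 (8.11% against 7.51%), shares near the background. Those over all windows went both ways: Crp, C3, C4b and Traf1 were higher with pemafibrate, and C1s1, Nfkb1, Ccl20 and Nlrc5 lower. In the 24 h exposure Traf1 was higher, and Lcn2, Saa3, Ccl20, Cxcl1 and Nlrc5 were lower. The fit over all windows includes the 24 h libraries. Because the members were chosen with earlier results of these data known, these shares do not test the group. No other tool was run, and every alternative setting of limma also gave 0 members.

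**Figure D1:**
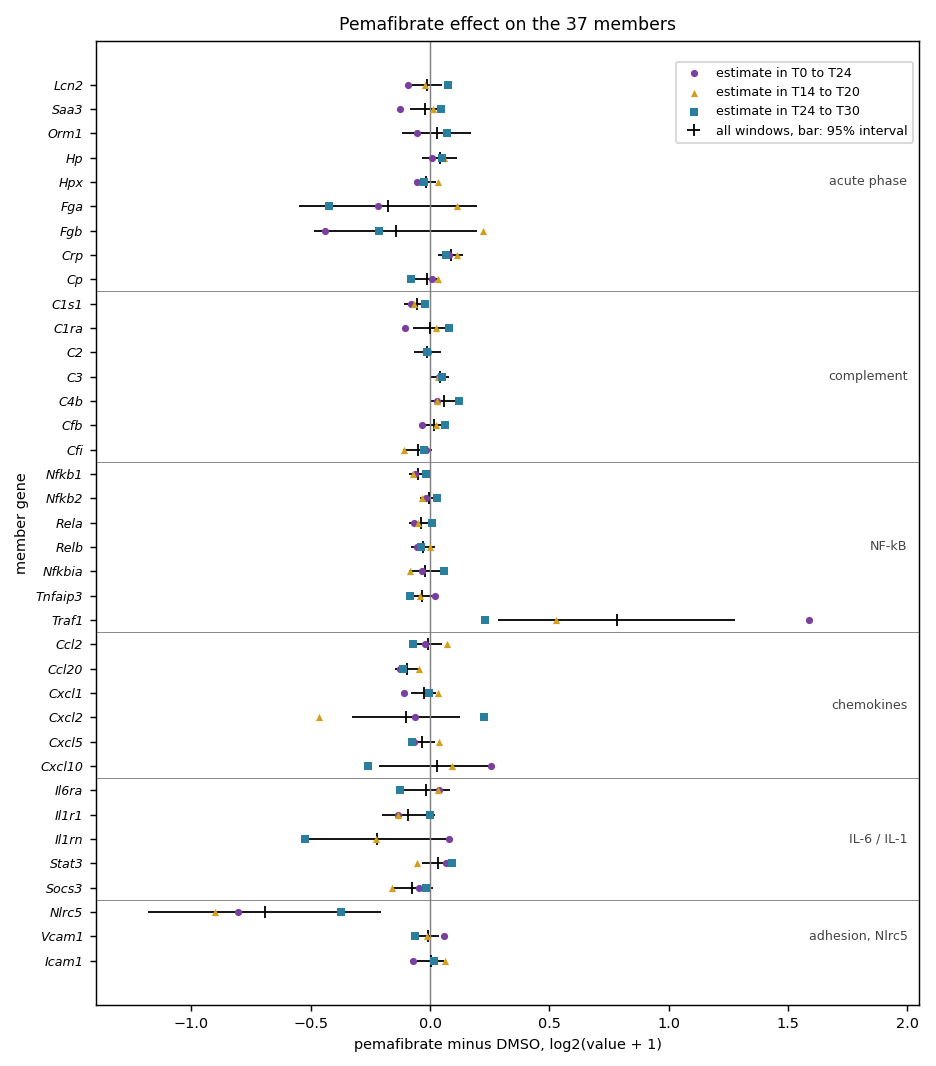
Pemafibrate effect on the 37 tested members, grouped by role (vertical axis), as log2 difference from DMSO (horizontal axis); coloured symbols are the estimates in each window, and black bars are the 95% intervals of the fit over the 9 pairs. Most bars lie close to 0, the widest belong to Traf1 and Nlrc5, and the 3 window estimates of Cxcl2 fall on both sides of 0.

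The fold changes were small and lay on both sides of 0. Over all windows 26 of 37 members had a negative estimate, against 6946 of 13258 genes. The median of the members was -0.02 on the log2 scale, and the median of all genes was -0.00247. Counts of signs were not tested, here or by role below. The 95% interval stayed within a 1.1-fold change either way for 26 of 37 members and within 1.2-fold for 30. The 7 wider ones were Fga, Fgb, Traf1, Cxcl2, Cxcl10, Il1rn and Nlrc5. For Traf1 and Nlrc5 the interval also reached past 2-fold. The fit over all windows took pairs of the same replicate number as independent, although the libraries of a number may share a culture. If they do, the intervals, SEs and p-values over all windows, here and elsewhere, may be too small. In single windows the share of negative estimates was 25 of 38 in the 24 h exposure, 17 of 38 from T14 to T20 and 21 of 37 from T24 to T30. Over all genes it was 6885 of 13325, 6780 of 13210 and 6665 of 13231.

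Among the acute phase genes 6 of 9 estimates over all windows were negative, and no gene passed. Crp (ENSMUSG00000037942), a pentraxin that is a weak acute phase reactant in mice, went the other way, with a log2 fold change of 0.09 ± 0.02 (SE, 9 pairs, adjusted p = 0.410 by limma). Its DMSO libraries held 2138, 1737 and 1144 units in T0 to T24 (replicates 1 to 3 here and below), 2204, 1899 and 1278 in T14 to T20, and 2489, 2080 and 1458 in T24 to T30. The pemafibrate libraries held 2172, 1842 and 1252, then 2398, 2126 and 1324, then 2494, 2298 and 1513. Crp was thus higher with pemafibrate in all 9 pairs, a pattern shown by 0.483% of all genes, while the 2 treatments overlapped widely, since each number kept a level of its own. Saa3 and Lcn2, both induced by NF-κB, had negative estimates in T0 to T24 (-0.12 ± 0.04 and -0.09 ± 0.03, lower in 3 of 3 pairs each) at adjusted p = 0.900 and 0.946 by limma. In T24 to T30 their estimates were 0.05 ± 0.04 and 0.07 ± 0.05. Ceruloplasmin, a copper-binding oxidase, held 25428, 26095 and 22839 with DMSO in T0 to T24 and 25389.6, 26433 and 23025 with pemafibrate, and its 95% interval over all windows ran from -0.06 to 0.04.

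Complement estimates were divided, with 4 of 7 positive over all windows and none past the threshold. C4b (ENSMUSG00000073418), the fourth component of the classical pathway, had its largest estimate in T24 to T30. There the DMSO libraries held 3993, 3105 and 1707 units and the pemafibrate libraries 4610, 3400 and 1733. All 3 pairs were higher with pemafibrate, by 0.12 ± 0.05 on the log2 scale (adjusted p = 0.661 by limma), and without replicate 1 the difference was 0.08. C3, the component on which all complement pathways converge, held 37306, 44622 and 27836.5 with DMSO and 36673, 48880 and 27869 with pemafibrate in T0 to T24. It was higher in 7 of 9 pairs, with an interval over all windows from 0.00 to 0.08. The estimates of C1s1 and C1ra, the proteases of the first component, were -0.06 ± 0.02 and 0.00 ± 0.03.

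Of the 7 NF-κB genes 6 had negative estimates over all windows. For the subunits Nfkb1, Nfkb2, Rela and Relb they ran from -0.05 to -0.01, and Nfkb1 was lower in 8 of 9 pairs (-0.05 ± 0.02, adjusted p = 0.629 by limma). Rela, the transactivating subunit, held 7694, 8365 and 7395 units with DMSO and 7595, 8273 and 6586 with pemafibrate in T0 to T24. The feedback inhibitors Nfkbia and Tnfaip3 had estimates of -0.02 ± 0.03 and -0.03 ± 0.02. Traf1 (ENSMUSG00000026875), an adaptor of TNF receptors, was the exception in size and in sign. In T0 to T24 its DMSO libraries held 6.49, 9.94 and 7.03 units and its pemafibrate libraries 27.2, 34.6 and 16.8, so that the groups did not overlap. The share of all genes whose groups lie apart within a window was not counted, here or below. The log2 fold change of Traf1 was 1.59 ± 0.34 (SE, 3 pairs), with an adjusted p = 0.533 by limma, at a signal of 34.6 reads or fewer. In T14 to T20 the values were 5.00, 18.3 and 7.48 with DMSO and 9.46, 24.7 and 9.99 with pemafibrate. In T24 to T30 they were 10.9, 25.5 and 5.65 with DMSO and 11.7, 22.9 and 10.1 with pemafibrate. The groups overlapped in both 6 h windows, and Traf1 was higher in 8 of 9 pairs overall (0.78 ± 0.23 over all windows, adjusted p = 0.459 by limma).

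Among the chemokines 5 of 6 estimates over all windows were negative, and Ccl20 had the smallest p of all members. Ccl20 (ENSMUSG00000026166), the ligand of CCR6, held 3904, 5673 and 5752 units with DMSO and 3764, 4976 and 5234 with pemafibrate in T0 to T24. In T14 to T20 it held 3747, 3484 and 3487 with DMSO and 3641, 3456 and 3298 with pemafibrate, and in T24 to T30 3570, 3503 and 3379 against 3133, 3491 and 3051. The pemafibrate library was lower in all 9 pairs, as for 0.302% of all genes, although the groups overlapped in every window. The difference was -0.09 ± 0.02 over all windows (adjusted p = 0.332 by limma), and -0.13 ± 0.04 in the 24 h exposure, -0.04 ± 0.03 from T14 to T20 and -0.11 ± 0.05 from T24 to T30. Cxcl1, a ligand of CXCR2, was lower in 3 of 3 pairs of the 24 h exposure (-0.11 ± 0.04, adjusted p = 0.896). Its libraries there held 4739, 6774 and 4875 units with DMSO and 4320, 6205 and 4661 with pemafibrate, which overlap. Ccl2, which attracts monocytes, had an interval from -0.06 to 0.05 over all windows.

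Cxcl2 (ENSMUSG00000058427), the second CXCR2 ligand, differed between the 6 h windows in its estimates. In T14 to T20 the DMSO libraries held 195, 209 and 81.6 units and the pemafibrate libraries 121, 193 and 53.4, lower in 3 of 3 pairs (-0.47 ± 0.15, adjusted p = 0.529 by limma). In T24 to T30 the DMSO libraries held 123, 217 and 66.2 units and the pemafibrate libraries 131, 247 and 87.4, higher in 3 of 3 pairs (0.23 ± 0.12, adjusted p = 0.710). The groups overlapped in both windows. The difference of the effects was -0.69 ± 0.18, and its adjusted p was 0.393.

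In IL-6 and IL-1 signalling 4 of 5 estimates over all windows were negative and none passed. Il1rn, the IL-1 receptor antagonist, held 564, 510 and 595 units with DMSO and 344, 510 and 328 with pemafibrate in T24 to T30. Replicates 1 and 3 were lower with pemafibrate and replicate 2 was level, so that the groups lay apart only by that pair's small gap, for a difference of -0.52 ± 0.16 (adjusted p = 0.615 by limma). In T0 to T24 Il1rn held 474, 463 and 258 with DMSO and 492, 353 and 385 with pemafibrate, and there the estimate was 0.08 ± 0.16. Stat3, the transcription factor downstream of IL-6, held 4297, 4445 and 3204 with DMSO and 4568, 4777 and 3217 with pemafibrate in T0 to T24, and its interval over all windows ran from -0.03 to 0.10. Socs3, the feedback inhibitor of that pathway, had an estimate of -0.07 ± 0.04, and the receptor chain Il6ra one of -0.02 ± 0.05.

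Nlrc5 (ENSMUSG00000074151), the activator of MHC class I genes, had the lowest estimate of the 37 members. In T14 to T20 its DMSO libraries held 84.7, 98.7 and 90.2 units and its pemafibrate libraries 33.4, 54.2 and 61.7, so that the groups did not overlap (-0.90 ± 0.19, adjusted p = 0.374 by limma). In T0 to T24 it held 158, 90.8 and 103 with DMSO and 44.7, 56.7 and 108 with pemafibrate, and in T24 to T30 84.9, 81.7 and 52.4 against 66.8, 25.8 and 95.2. In those windows the groups overlapped, and replicate 3 was higher with pemafibrate in both. Over all windows the difference was -0.69 ± 0.23 with 7 of 9 pairs lower (adjusted p = 0.606). Without replicate 3 it was -1.10, with an adjusted p of 0.0919. Vcam1 and Icam1, which bind leukocytes, had intervals from -0.05 to 0.04 and from -0.06 to 0.06.

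No member's effect differed between windows past the threshold (limma, 0 of 37 in each of 3 comparisons, against 0% of 13258 genes). At an unadjusted p under 0.05 there were 4 members for T14 to T20 minus T24 to T30 (10.8%, against 9.24% of all genes, which is near the background). There were 5 for T0 to T24 minus T14 to T20 (13.5% against 4.93%) and 7 for T0 to T24 minus T24 to T30 (18.9% against 7.97%). The choice of members limits these shares in the same way as those above. The largest difference in size was that of Traf1, 1.36 ± 0.43 for T0 to T24 minus T24 to T30 (adjusted p = 0.594).

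The other genes of these pathways were examined as 6 lists with 134 distinct genes, of which 109 were tested over all windows: further acute phase, complement, NF-κB, IL-6 and STAT, cytokine, and interferon genes. None passed with pemafibrate in any window or over all windows, where the smallest adjusted p was 0.332, for the chemokine Ccl9 (-0.47 ± 0.12). Cd55, a complement regulator on the cell surface, had an estimate of -0.55 ± 0.18 (adjusted p = 0.586), Stat5b one of -0.09 ± 0.03 (0.485) and the NF-κB kinase Map3k7 one of 0.10 ± 0.04 (0.629). By list, 12 further acute phase genes had a median of -0.04, 13 complement genes -0.03, 28 NF-κB genes -0.00798, 19 IL-6 and STAT genes -0.02, 14 cytokine genes -0.00857 and 23 interferon genes 0.00200.

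Many members differed between libraries of different replicate numbers. Replicate 3 was the low one: 26 of 37 members were lower in replicate 3 than in replicate 2 and 2 were higher (limma on 18 libraries with the 6 groups as a factor, adjusted p under 0.05). Over all 13258 genes 21.5% were lower and 22.5% higher in that comparison, and the shares of members were 70.3% and 5.41%. The median difference was -0.53 for the members and -0.00495 for all genes. Against replicate 1, replicate 3 was lower for 22 members and higher for 2 (24.8% and 26.7% of all genes), with a median of -0.26. Replicate 2 was higher than replicate 1 for 19 members and lower for 4 (22.7% and 22.4% of all genes), with a median of 0.23. The 6 libraries of a number may come from 1 culture, so these tests describe the libraries. The fit also had no term for the pair of DMSO and pemafibrate libraries of 1 number and window. It took them as independent, so the SEs and p-values between numbers, here and below, may be too small.

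**Figure D2:**
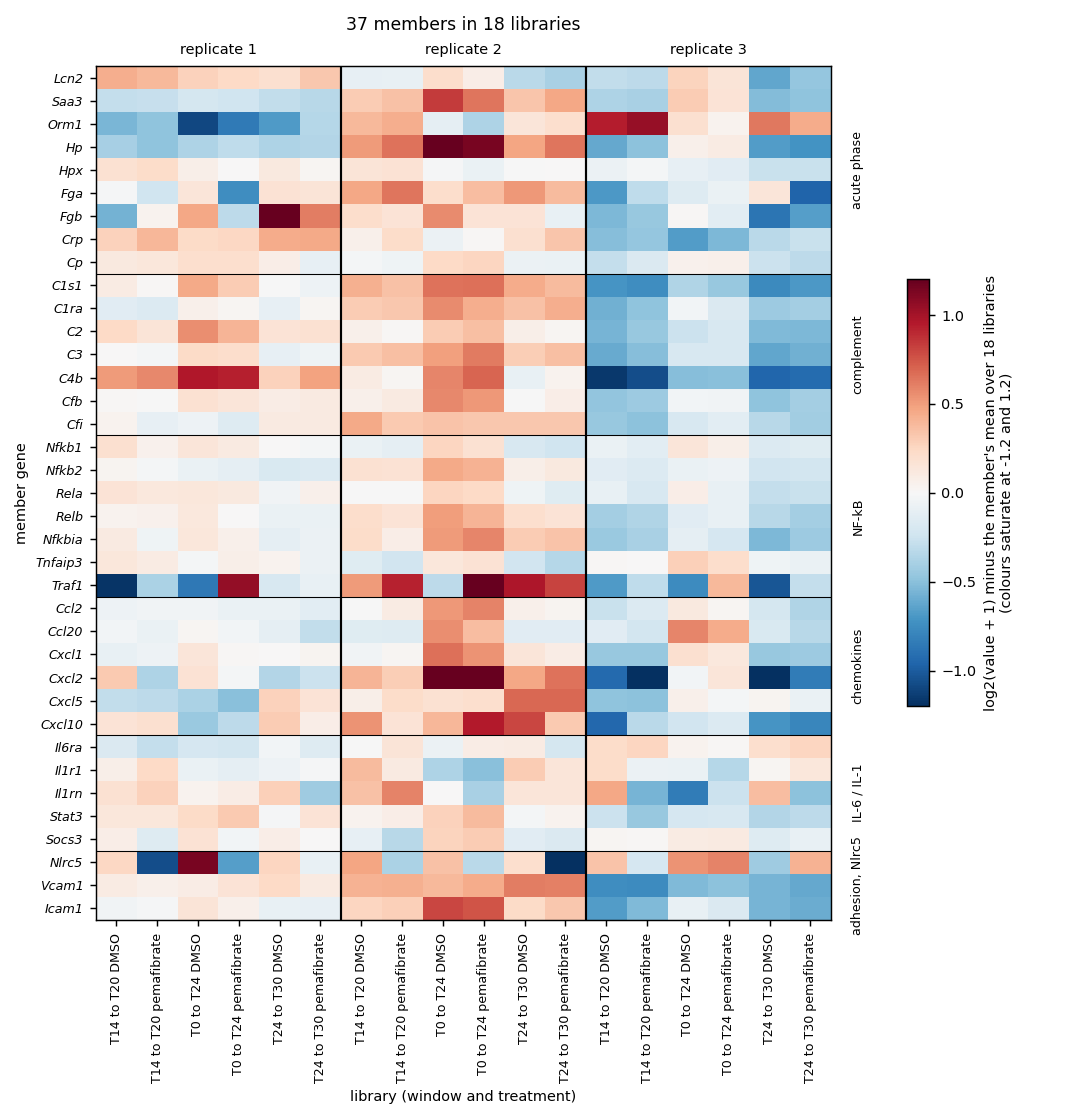
The 37 tested members (rows, by role) in the 18 libraries (columns, by replicate number, window and treatment); colour is log2(value + 1) minus the member's mean over all libraries. Replicate 3 is mostly blue, replicate 2 mostly red, and adjacent DMSO and pemafibrate columns look alike.

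By the mean of its 6 libraries, replicate 2 was the highest for 22 of 37 members, replicate 1 for 11 and replicate 3 for 4, where the shares over all genes were 31.1%, 34.4% and 34.4%. Replicate 3 was the lowest for 29 of 37, against 35.2% of all genes. For 19 members the 6 libraries of replicate 3 all lay below the 6 of replicate 2 (9.09% of all genes), and for none all above (11.3%). For 11 members all of replicate 3 lay below all of replicate 1 (9.59%), and for 2, Orm1 and Il6ra, all above (11.1%). For 11 members all of replicate 2 lay above all of replicate 1 (8.39%), and for none all below (7.29%).

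All complement genes shared a direction, with 7 of 7 lower in replicate 3 than in either other number. C3 lay between 29681 and 37306 units in replicate 1 (median 31504), between 39070 and 48880 in replicate 2 (median 40658) and between 20558 and 27869 in replicate 3 (median 21742). No library of 1 number overlapped those of another, and replicate 3 differed from replicate 2 by -0.86 ± 0.03 (SE, adjusted p = 4.1e-10). C1s1 had medians of 1912, 2493 and 1131 and differed by -1.11 ± 0.04 between replicates 3 and 2. C4b had another order. It was highest in replicate 1, between 3993 and 6416 units, intermediate in replicate 2, between 3105 and 5338, and lowest in replicate 3, between 1476 and 2332. Replicate 3 overlapped neither other number, while replicates 1 and 2 overlapped. Its difference between replicates 3 and 1 was -1.47 ± 0.05 (adjusted p = 3.5e-11), the largest difference of any member in that comparison. C2 had the same order as C4b, with medians of 4595, 4147 and 2817.

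Of the 9 acute phase genes 6 were lower in replicate 3 than in replicate 2 (Saa3, Hp, Hpx, Fga, Crp and Cp). Haptoglobin, which binds free hemoglobin, lay between 689 and 777 units in replicate 1, between 1331 and 2236 in replicate 2 and between 583 and 1026 in replicate 3. Replicate 2 stood above both others without overlap, by 1.15 ± 0.10 over replicate 1, and replicate 3 was lower than replicate 2 (-1.17). Replicates 1 and 3 did not differ past the threshold (-0.01 ± 0.10, adjusted p = 0.93). Saa3 also had its highest median in replicate 2 (5228, 8409 and 4865), although its libraries of replicates 2 and 3 overlapped. Orm1, which encodes an acid glycoprotein, was highest in replicate 3: its medians were 124, 215 and 277 units, replicate 2 was higher than replicate 1 by 0.78 ± 0.09, and replicate 3 was higher than replicate 1 by 1.22 ± 0.09. Crp and Lcn2 were highest in replicate 1, with medians of 2301 and 18360 units there against 1301 and 12048 in replicate 3.

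**Figure D3:**
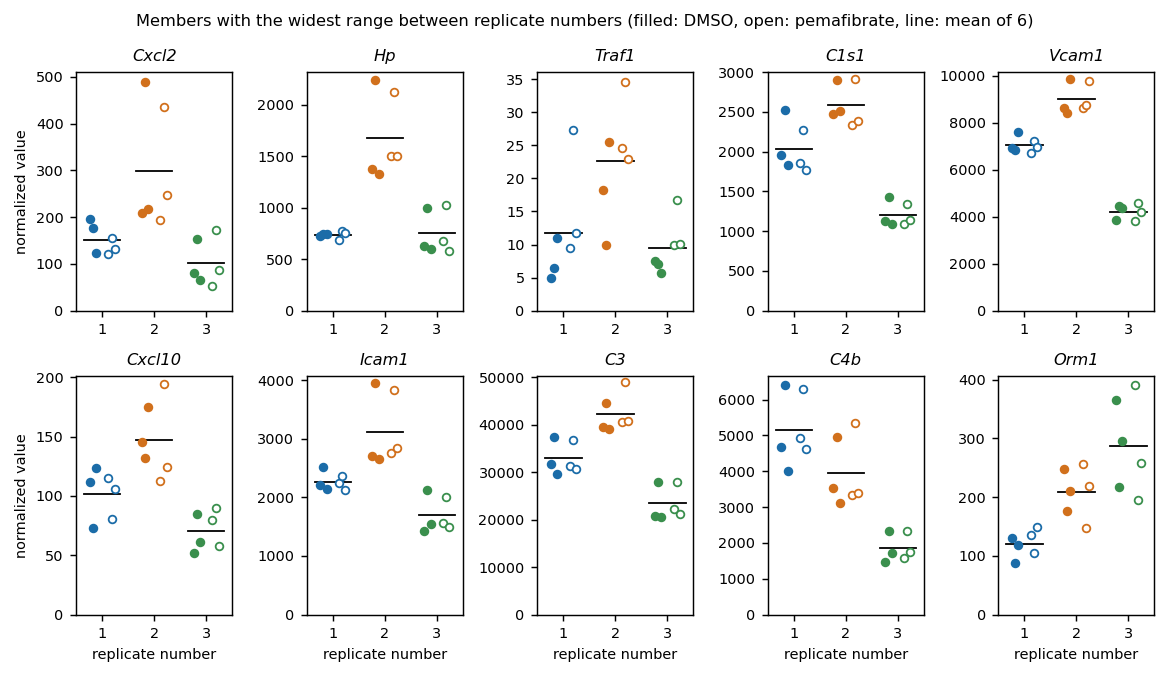
Normalized values (vertical axes, from 0) of the 10 members with the widest range between replicate numbers (horizontal axes); filled points are DMSO libraries, open points pemafibrate libraries, and lines the mean of the 6 libraries of a number. Filled and open points mix within each number, replicate 2 is highest for 8 of the 10 genes, and Orm1 alone is highest in replicate 3.

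Of the 7 NF-κB genes 5 were lower in replicate 3 than in replicate 2 (Nfkb2, Rela, Relb, Nfkbia and Traf1), and Tnfaip3 was higher, by 0.17 ± 0.06. Nfkbia, the inhibitor that NF-κB itself induces, had medians of 1984, 2483 and 1491 units and a difference of -0.69 ± 0.05 between replicates 3 and 2 (adjusted p = 1.3e-07). Relb had medians of 2144, 2436 and 1655. Traf1 differed by -1.16 ± 0.23 but, in the DMSO libraries alone, by -1.21 with an adjusted p of 0.0851, which does not pass. Nfkb1 did not pass between replicates 2 and 3 (-0.02 ± 0.04, adjusted p = 0.74).

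Of the 6 chemokines 5 were lower in replicate 3 than in replicate 2 and higher in replicate 2 than in replicate 1. Cxcl2 had the widest difference of all members, -1.56 ± 0.16 between replicates 3 and 2 (adjusted p = 2.3e-06). It lay between 121 and 195 units in replicate 1, between 193 and 489 in replicate 2 and between 53.4 and 173 in replicate 3. Only replicates 2 and 3 did not overlap. Cxcl10, an interferon-inducible ligand of CXCR3, had medians of 109, 139 and 70.1 and differed by -1.05 ± 0.18. Ccl20, the remaining chemokine, passed in none of the 3 comparisons (0.15 ± 0.08, 0.11 ± 0.08 and -0.04 ± 0.08 for replicates 2 against 1, 3 against 1 and 3 against 2).

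Both adhesion molecules were lower in replicate 3 than in replicate 2. Vcam1 lay between 6725 and 7597 units in replicate 1, between 8427 and 9862 in replicate 2 and between 3824 and 4584 in replicate 3, with no overlap, and differed by -1.10 ± 0.04 between replicates 3 and 2 (adjusted p = 2.6e-10). Icam1 had medians of 2221, 2797 and 1553 and differed by -0.88 ± 0.05. Nlrc5 passed in none of the comparisons. In IL-6 and IL-1 signalling Stat3 was lower in replicate 3 than in replicate 2 (-0.43 ± 0.04), while Il1r1, Il1rn and Socs3 passed in none, and Il6ra was higher in replicates 2 and 3 than in replicate 1.

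Of the 109 tested genes of the other pathway lists, 50 were lower and 12 higher in replicate 3 than in replicate 2. Over all genes 21.5% were lower and 22.5% higher. By list, 8 of 12 further acute phase genes and 15 of 23 interferon genes were lower with none higher, and 12 of 28 NF-κB genes were lower with 3 higher. IL-6 and STAT genes were lower for 7 of 19 and higher for 2. Complement genes outside the members were divided, 4 of 13 lower and 4 higher, as were cytokine genes, 4 of 14 lower and 3 higher. Counts in the complement and cytokine lists lay near the shares of all genes. Interferon genes were higher in replicate 2 than in replicate 1 for 16 of 23, with 1 lower (22.7% and 22.4% of all genes). Examples of genes lower in replicate 3 than in replicate 2 were the interferon-induced GTPase Gbp2 (-1.18 ± 0.07), the receptor Tlr2 (-0.99 ± 0.07) and the metallothionein Mt2 (-0.54 ± 0.03). Among those higher were Il11 of the cytokine list (0.91 ± 0.08) and Masp1 of the complement list (0.45 ± 0.03).

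Markers of cell types also differed between the numbers, not all in 1 direction. The summed signal of the 12 hepatocyte markers lay between 83782 and 94415 in replicate 1, between 84513 and 98100 in replicate 2 and between 76304 and 89387 in replicate 3. Most of that sum was Trf and Apob. Alb was highest in replicate 1, with medians of 6633, 3896 and 3231 units, Ttr was lowest in replicate 3 (4094, 3949 and 1844), and Hnf4a was highest in replicate 3 (7219, 7582 and 9049). The 5 bile duct markers summed to between 51669 and 60371 in replicate 1, between 69742 and 76849 in replicate 2 and between 49624 and 54116 in replicate 3. Spp1 made up most of this sum, with medians of 35012, 52843 and 30534. Krt7 and Krt19 had their highest medians in replicate 3 instead (4269, 4158 and 4860 for Krt7, and 9395, 10133 and 12021 for Krt19), while Sox9 was lowest there (4331, 4482 and 2953). The 7 stellate and fibroblast markers had median sums of 133, 155 and 185, and the 9 macrophage markers 273, 321 and 275, with Adgre1 and Clec4f at 0 throughout. Csf1r made up most of the macrophage sum, with medians of 183, 202 and 195. The part of these markers in the differences between numbers was not tested.

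The harvest times T20, T24 and T30 come from tables that were normalized separately and differ in the length and start of the exposure, so these cannot be told apart from the time, and no test was run between them. In the DMSO libraries 0 of 37 members differed at least 1.5-fold the same way in all 3 numbers between any 2 times. That rule took 0.415% of all genes for T24 against T20, 0.264% for T30 against T20 and 0.792% for T30 against T24. Smaller differences had a common direction. At T24, 18 of 37 members were higher than at T20 in all 3 numbers and 6 were lower (14.4% and 23.2% of all genes), with a median of 0.21 for the members and -0.02 for all genes. At T30, 23 of 37 were lower than at T24 in all 3 numbers and 6 were higher (16.3% and 27.5% of all genes), with a median of -0.25 against 0.04. Between T30 and T20, 6 were higher and 11 lower (21% and 15.9% of all genes), with a median of -0.04 against 0.01. Any 2 of these comparisons share the DMSO libraries of 1 time.

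A maximum at T24 was seen mainly in replicates 2 and 3. The median difference of the members between T24 and T20 was 0.03, 0.26 and 0.33 in DMSO replicates 1, 2 and 3, and 0.05, 0.29 and 0.27 in the pemafibrate libraries. A rule over 2 numbers takes more genes than one over all 3. Without replicate 1, 4 members were at least 1.5-fold higher at T24 than at T20 with DMSO (Hp, Ccl20, Cxcl1 and Cxcl2, against 1.36% of all genes), and 3 were lower at T30 than at T24 (Hp, Ccl20 and Cxcl2, against 1.53%). In the pemafibrate libraries of the same numbers only Cxcl2 was higher at T24 than at T20 (1.52%) and Orm1 lower (0.898%), while Cxcl2 and Cxcl10 were lower at T30 than at T24 (1.29%). With DMSO and without replicate 2, the comparison of T30 with T24 gave Nlrc5 (lower, 1.24%), and without replicate 3 it gave Traf1 (higher, 0.769%) and C4b (lower, 2.08%).

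Cxcl2 held 195, 209 and 81.6 units at T20 in DMSO replicates 1 to 3, 177, 489 and 153 at T24, and 123, 217 and 66.2 at T30. Replicates 2 and 3 stood above their other times at T24, while replicate 1 was highest at T20. Ccl20 held 3747, 3484 and 3487 at T20, 3904, 5673 and 5752 at T24, and 3570, 3503 and 3379 at T30, again with a peak in replicates 2 and 3 and nearly level values in replicate 1. Haptoglobin held 727, 1372 and 625, then 741, 2236 and 1000, then 740, 1331 and 601, with the same division between the numbers.

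Complement genes had the T24 maximum in every number. Of the 7, 6 were higher at T24 than at T20 and 6 lower at T30 than at T24 in all 3 DMSO replicates, and Cfi, a protease that degrades C3b, was the exception. C4b held 4689, 3528 and 1476 units at T20, 6416, 4949 and 2319 at T24, and 3993, 3105 and 1707 at T30. Its differences between T24 and T20 were 0.45, 0.49 and 0.65 in DMSO and 0.35, 0.67 and 0.56 with pemafibrate. C3 held 31792, 39548 and 20844 at T20, 37306, 44622 and 27836.5 at T24, and 29681, 39070 and 20558 at T30.

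**Figure D4:**
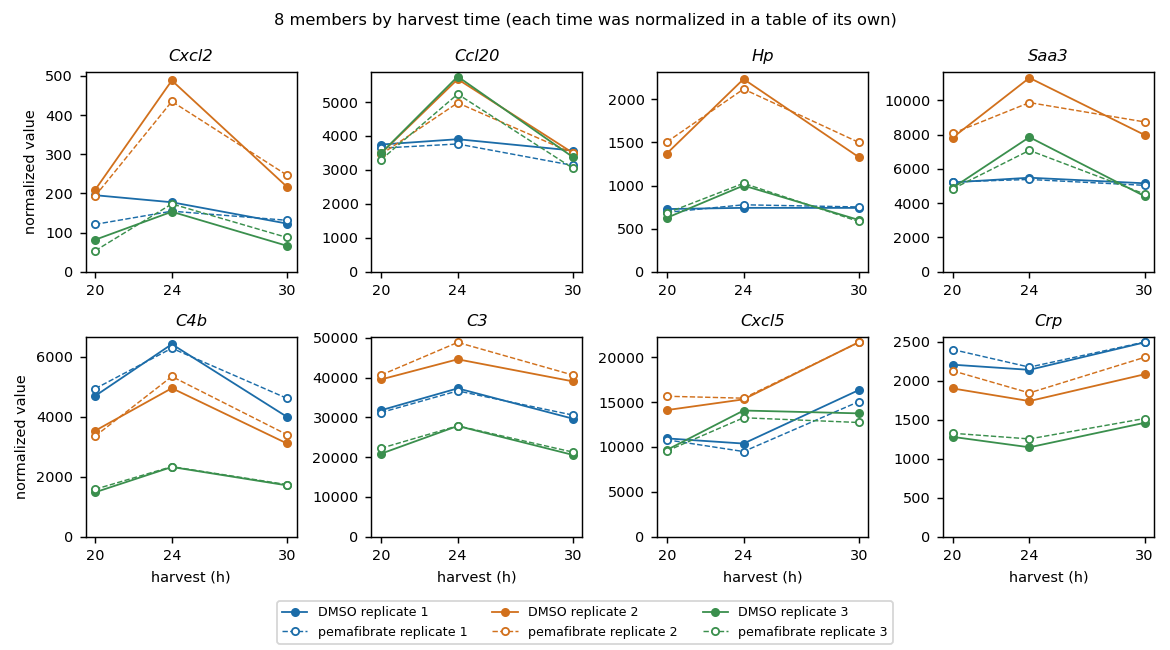
Normalized values (vertical axes, from 0) of 8 members at harvest times T20, T24 and T30 (horizontal axes, h), each time from a table normalized on its own; solid lines are DMSO and dashed lines pemafibrate libraries, coloured by replicate number. Cxcl2, Ccl20, Hp and Saa3 stand above their other times at T24 in replicates 2 and 3, by least for Saa3 with pemafibrate in replicate 2, C4b and C3 are highest at T24 in all numbers, and DMSO Crp is lowest at T24.

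Some members ran against this. Of 5 IL-6 and IL-1 signalling genes, Il6ra, Il1r1 and Il1rn were lower at T24 than at T20 in all 3 DMSO replicates. These 3 were also higher at T30 than at T24 in every number, while Stat3 and Socs3 went the other way at both steps. Hpx, too, was lower at T24 than at T20 in all 3 DMSO replicates. Orm1 was lowest at T24, with 88.2, 176 and 217 units against 130, 248 and 366 at T20 and 118, 210 and 296 at T30. Crp was also lowest at T24 in all 3 DMSO replicates, and its difference between T30 and T24 was 0.22, 0.26 and 0.35. Cxcl5, a CXCR2 ligand, was higher at T30 than at T20 by 0.58, 0.62 and 0.51 with DMSO and by 0.48, 0.47 and 0.41 with pemafibrate. Fgb held 13.9, 24.7 and 14.2 units at T20, 29.6, 31.9 and 21.3 at T24, and 50.4, 23.8 and 11.1 at T30, so that all numbers were higher at T24 than at T20 but only replicate 1 was higher still at T30. Nlrc5 held 84.7, 98.7 and 90.2, then 158, 90.8 and 103, then 84.9, 81.7 and 52.4, and only its T30 values were below those of T24 in every number. The summed hepatocyte markers had medians of 84687, 92448 and 87130 at T20, T24 and T30, and their part in these differences was not tested.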

How the data were processed

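Stranded (dUTP) libraries were made from the poly(A) RNA of AML12 cells, per the labels' protocols. Sample titles gave each library's group and replicate number. The authors deposited 1 table per window with 6 libraries each, whose values are a normalized signal per gene, per the file headers and names. The authors' column names carry the name of salmon output. The scaling method, software version, build and annotation are not stated in the sources used here, and each table was taken as scaled on its own. Of low values, 56.9% to 74.9% were whole multiples of 1 read within 0.05, so reads were not recovered, depth before scaling is unknown, and no count test was run. Symbols matched 35181 IDs and 370 had no symbol.

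The log2(value + 1) scale, used throughout, understates the change of a low gene. For genes whose mean was 10 or more over a fit's libraries, limma 3.58.1 (R 4.3.3) gave the test (eBayes with trend, two-sided, Benjamini-Hochberg adjustment over all genes, threshold 0.05). Some of these fits were also run on simulated data, whose outcome is not given here. The simulation between replicate numbers had no effect shared by the DMSO and pemafibrate libraries of a pair. It therefore does not check the p-values between numbers. Pemafibrate was compared with DMSO with the replicate number as a block. Deviations from group means correlated at 0.308 to 0.622 in the 9 same-number pairs and at -0.425 to -0.115 between the 18 other pairings. Deviations within a group sum to 0, which pushes the other pairings below 0 once the same-number values are positive. The pairing therefore rests on the same-number values and the title numbers. Harvest times were only described.

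Members and gene lists were chosen with earlier results of these data known. A rule named the 3 members of smallest p per window, 4 over all windows and 1 per role. It also named the widest 10 between numbers, the widest 5 between times and up to 2 genes from each other pathway list. Some of these are given by library, and others only by range, median, estimate or interval. Other members were named after their values were seen. The fit averaged over windows, the same-sign counts and the counts of libraries that do not overlap were added after seeing the data.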

Additional observations from a re-analysis of the deposited data

How the results depend on the processing

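The count of 0 members called with pemafibrate, in each window, over all windows and for each difference between windows, was 0 under all alternatives: pseudocounts of 0.25 and 5, no filter or a mean of at least 50, TMM rescaling, eBayes without trend or robust, a shared fit of all libraries, no replicate block, windows averaged within a number (chosen after seeing the data), and leaving out each replicate number. With no replicate block the count was 0 in every comparison. Over all genes the calls ranged from 0 to 14 in T0 to T24 (7 as reported), 0 to 9 in T14 to T20 (5), 0 to 8 in T24 to T30 (5) and 2 to 26 over all windows (25). Between replicate numbers the members called ranged from 17 to 25 for 2 against 1, 19 to 31 for 3 against 1 and 24 to 30 for 3 against 2. All genes called there ranged from 2433 to 6005, 3368 to 6858 and 2721 to 5839. Members shifted 1.5-fold between harvest times ranged from 0 to 4 for T24 against T20 and from 1 to 3 for T30 against T24 when 1 number was left out. Among 263 values of named members, none reversed and 1 lost its call, Traf1 between replicates 3 and 2 in the DMSO libraries alone (-1.21). The pemafibrate effects among these values had no call to lose. Of them, C4b in T24 to T30 went from 0.12 to 0.08 without replicate 1. Nlrc5 over all windows went from -0.69 to -1.10 without replicate 3. Low signal limits Traf1, Fga, Fgb and Nlrc5, and 7 members could not be tested over all libraries.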
